A study of Rattus norvegicus with 36 samples.

Results

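The regions described here are places in the rat genome where CREB phosphorylated at serine 133 (pCREB) passed a limit on peak calls in the hippocampus of untrained rats but not in that of trained rats. They were chosen from the deposited list of pCREB regions by 3 conditions. A region had to overlap no region of the glucocorticoid receptor (GR) list, 3 or more of the 4 libraries of an untrained condition had to call a peak there, and it had to carry fewer than 3 calls in each trained condition. This gave 2741 regions, which are 26.2% of the 10465 pCREB regions without GR overlap on chromosomes 1 to 20 and X and 18.6% of all 14722 pCREB regions. They are called untrained-listed regions, or members, below. The values that chose them are the peak calls themselves, so that calls, and any difference in signal between untrained and trained rats, are given for them as a description and were not used as evidence of an effect of training.

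CREB is a transcription factor that sits at cAMP response elements of many genes. Kinases that respond to cAMP, calcium and growth factors phosphorylate it, and the phosphorylated form recruits the coactivators CBP and p300. In the hippocampus this step is among the best known links between neuronal activity and the gene expression that long-term memory requires. GR is the receptor for corticosterone, the main glucocorticoid of rats.

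The study used ChIP-seq on hippocampi of male Sprague-Dawley rats and was concerned with the strengthening of memory by glucocorticoids. Its groups were untrained rats given vehicle, untrained rats given corticosterone, trained rats given vehicle and trained rats given corticosterone. The labels give neither the age of the rats nor the kind of training. Every library came from chromatin pooled from 2 rats (4 hippocampi), and the 16 pCREB libraries, named A to D within each of the 4 conditions, are used here. Their reads in pCREB regions ran from 143219 in trained corticosterone A to 562249 in trained vehicle B. The conditions were sequenced in lanes 5, 6, 7 and 8, 1 lane each, so that lane and condition cannot be told apart. A ChIP signal of a whole hippocampus also cannot tell fewer cells with a bound site from less binding per cell.

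"Listed in untrained rats" did not mean absent from trained rats. Of the 2741 members, 2645 (96.5%) had a peak call in 1 or more trained libraries, and 96 (3.5%) had none. Members carried 3 to 8 calls in the 8 untrained libraries, with a median of 4, and 0 to 4 calls in the 8 trained libraries, with a median of 3. In 437 members (15.9%) the trained libraries held as many calls as the untrained ones or more, while in 182 (6.6%) the untrained libraries held at least 4 calls more. A gap of 6 calls, the widest seen among the members, occurred in 2 of them. Calls in both trained conditions stood just under the limit, at 2 of 4 each, in 831 members (30.3%).

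**Figure D1:**
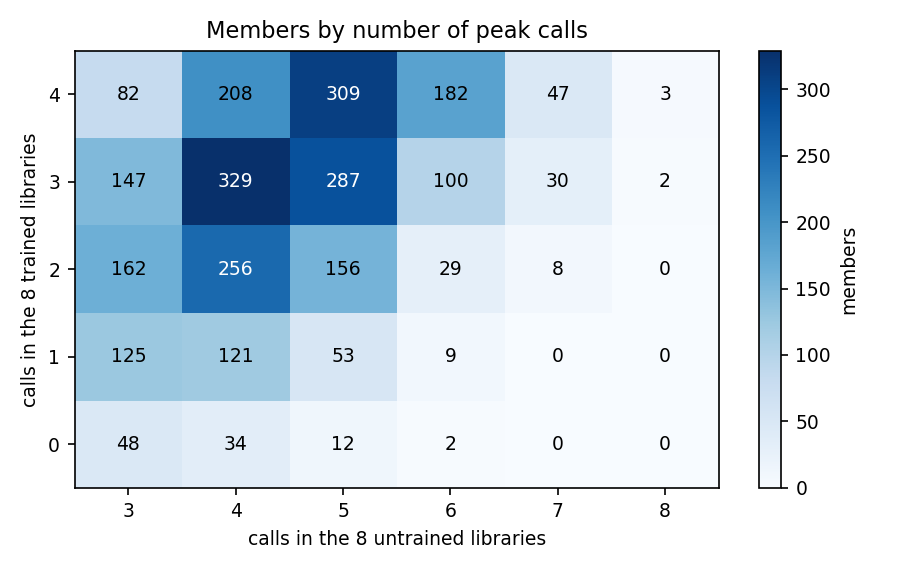
Number of members (colour and figure in each cell) by their calls in the 8 untrained libraries (x axis) and the 8 trained libraries (y axis). The fullest cell holds 329 members with 4 untrained and 3 trained calls, and the row without trained calls holds 96 members.

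Most members entered through 1 condition, untrained corticosterone. There 2199 members (80.2%) reached 3 calls while untrained vehicle did not, 307 (11.2%) reached them in untrained vehicle alone, and 235 (8.6%) in both. Over all pCREB regions, untrained corticosterone was also the condition with most regions at 3 or more calls, 11091 against 5515 in untrained vehicle, 9484 in trained vehicle and 7150 in trained corticosterone. Only 534 members were called in all 4 untrained corticosterone libraries and 16 in all 4 untrained vehicle libraries. All 8 untrained libraries called 5 members.

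The calls were spread unevenly over libraries. In untrained corticosterone, B called 89.4% of the members, A 81.5%, C 75.4% and D 56.1%. In untrained vehicle, C called 62.0%, B 45.5% and D 29.5%, but A called 3.3%. Among trained libraries the shares were 34.2%, 24.7% and 30.5% in vehicle A to C (vehicle D called 1371 members), and 0.2%, 69.5%, 22.7% and 43.3% in corticosterone A to D. Trained corticosterone B thus called more members than any untrained vehicle library did. The same libraries were low or high over the whole list: untrained vehicle A and trained corticosterone A had calls in 10.2% and 7.9% of all pCREB regions and were the shallowest with 226220 and 143219 reads, whereas trained corticosterone B had calls in 87.5%.

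**Figure D2:**
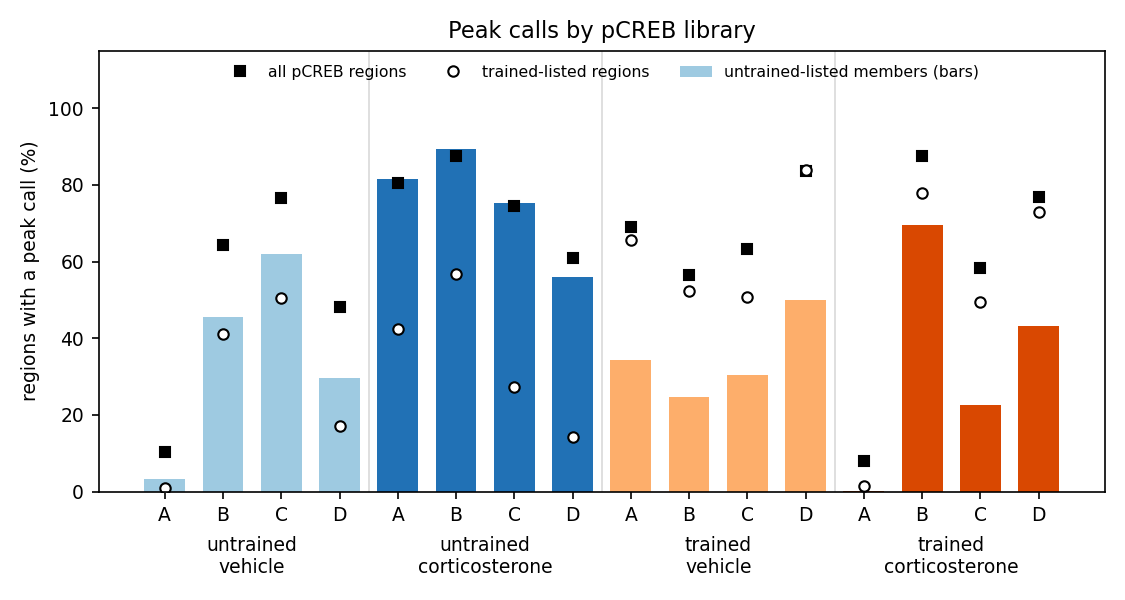
Share of regions with a peak call (y axis, percent) in each pCREB library (x axis, letters within conditions): bars for the members, squares for all pCREB regions, circles for regions listed in trained but not untrained rats. Bars are highest in untrained corticosterone A to C and near 0 in untrained vehicle A and trained corticosterone A, where the squares are low as well.

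The size of the set depended on the libraries and the limits used. With untrained vehicle A and trained corticosterone A left out and 2 of the 3 remaining calls required in their conditions, a setting chosen after the data were seen, 1401 regions qualified, all of them among the 2741. Leaving out 1 untrained corticosterone library while still asking for 3 calls gave 1333 members without A, 1158 without B, 1392 without C and 1834 without D. Leaving out 1 trained library, with the limit of fewer than 3 calls kept, gave 2754 (corticosterone A) to 4201 (vehicle D). With the limits kept, the first change cannot add members and the second cannot remove any, so only the sizes are informative. Asking for 4 of 4 calls in an untrained condition left 545 members, allowing at most 1 call in each trained condition left 773, and allowing none left 96. By contrast, 2705 members had no GR region within 1 kb, so that the requirement of no GR overlap changed little when widened.

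At the median, libraries held more reads at the members they called than at those they did not. In trained vehicle C the median was 15 reads at members it called and 10 at those it did not. In untrained corticosterone B it was 19 against 12, and in trained corticosterone B 22 against 13. The called members had the higher median in every one of the 16 libraries, with 11 to 42 reads against 4 to 13. The gap was widest in trained vehicle B, with 42 against 9 reads. Read count alone did not decide a call. The member chr1:182011756-182012187 held 41 to 104 reads in the trained libraries and had 0 calls in them.

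Relative to other pCREB regions, the members were narrow and weak. Their median width was 375 bp (quartiles 304 and 491), against 462 bp over all pCREB regions and 809 bp for the 575 regions without GR overlap that were called in 15 or 16 libraries. The median member held 212 reads over the 16 libraries together, against 314 for all pCREB regions and 1345 for those 575. Per kb of width the medians were 564, 669.7 and 1613.5 reads. The mirror set, 2528 regions listed in trained and not in untrained rats, had nearly the same values as the members: a median width of 389 bp, 224 reads and 571 reads per kb. Widths and reads are themselves tied to peak calling, and these differences carry no test.

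The position of the members resembled that of the list they came from. They lay on all chromosomes considered, and their share of the pCREB regions without GR overlap ran from 21.9% on chromosome 5 and 22.0% on X to 30.4% on chromosome 18, with 25.5% on chromosome 1, where 302 members lie. The nearest other pCREB region was 30.6 kb away at the median (30.2 kb over all pCREB regions), and 4.1% had one within 1 kb (4.7% over all). The nearest GR region was 97.1 kb away, against 99.5 kb for all pCREB regions without GR overlap. Members seldom formed groups. Linking members no more than 50 kb apart gave 8 groups of at least 4, of which the fullest were 2 groups of 5 members on chromosome 7, chr7:3056103-3183053 and chr7:12325735-12431583. The first of these spans 127.0 kb and also holds 2 regions listed in trained but not untrained rats and 1 that overlaps GR.

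Signal at the members overlapped between untrained and trained libraries, although the level of the median member tended to be lower in trained rats. Levels are given as CPM, the read count of a region scaled to the total of all tested pCREB regions with TMM factors. The median member stood at 36.6, 30.6, 32.7 and 32.4 CPM in untrained vehicle A to D and at 33.1, 34.9, 37.2 and 35.6 CPM in untrained corticosterone A to D. In trained vehicle A to D it stood at 26.5, 26.0, 33.3 and 32.5 CPM, and in trained corticosterone A to D at 31.9, 33.1, 30.5 and 28.4 CPM. The groups overlap: untrained vehicle B lies below trained vehicle C and D and trained corticosterone A and B. The ratio of mean untrained to mean trained CPM had a median of 1.09 over the 2741 members, against 0.983 over all pCREB regions and 0.904 for the trained-listed regions. It was above 1 in 69.5% of the members, 45.7% of all pCREB regions and 25.4% of the trained-listed regions.

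**Figure D3:**
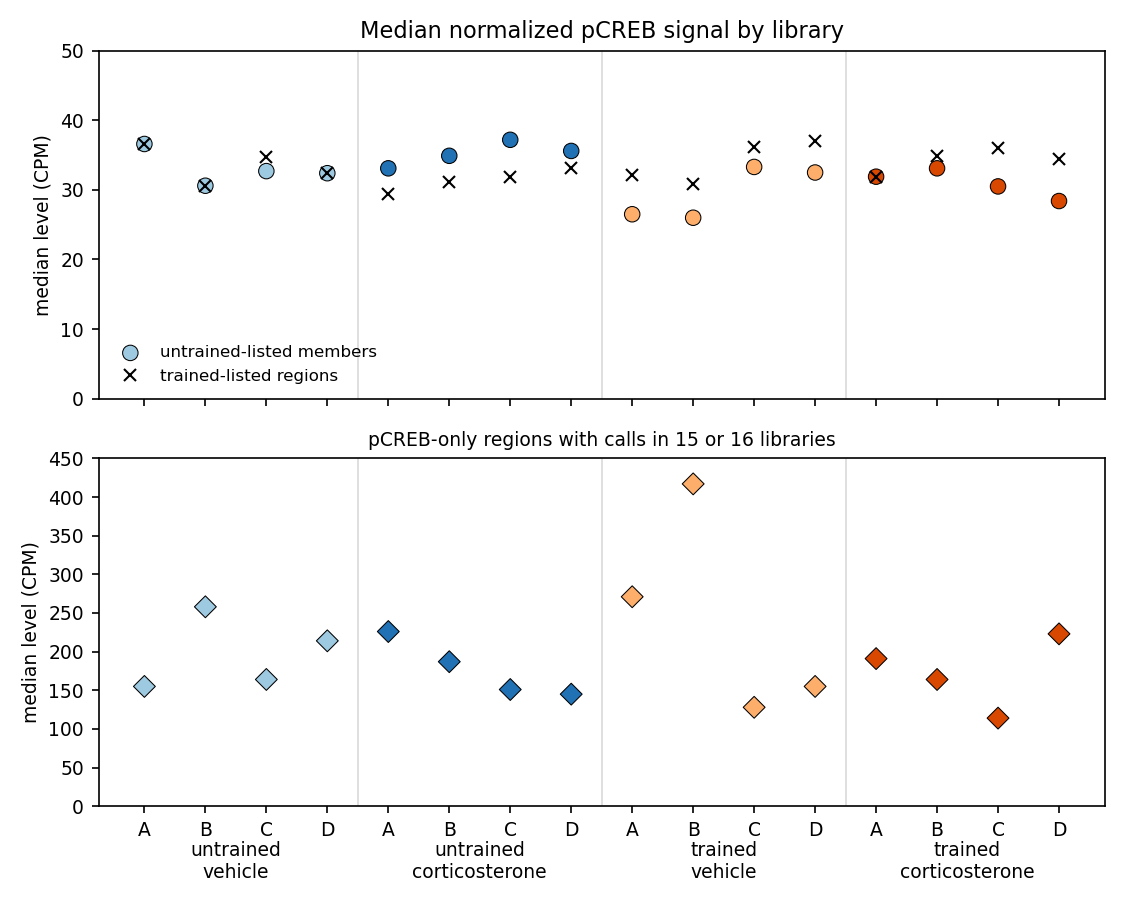
Upper panel, median level (y axis, CPM) in each pCREB library (x axis) of the members (circles) and of regions listed in trained but not untrained rats (crosses). Lower panel, the same for regions without GR overlap called in 15 or 16 libraries, which reach 417 CPM in trained vehicle B, where the members are lowest at 26.0 CPM.

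Trained vehicle A and B, which were lowest at the members, were highest at the strongest sites. At the 575 regions called in 15 or 16 libraries the median was 271 and 417 CPM in trained vehicle A and B and 128 and 155 CPM in trained vehicle C and D. It was 155 to 258 CPM in untrained vehicle, 145 to 226 CPM in untrained corticosterone and 114 to 223 CPM in trained corticosterone, so that trained vehicle A, unlike B, lay close to the highest of the other libraries. The part of this in the difference at the members was not tested.

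The ratio differed with the number of reads. Among the members in the lowest quartile of reads (61 to 169 over the 16 libraries) the median ratio of untrained to trained CPM was 1.17. In the second and the third quartile it was 1.1, and in the highest (287 to 3785) it was 0.998. Members without a trained call had a median ratio of 1.29, those with 1 trained call 1.25, and those with 4 trained calls 1.02. Values on both sides of the limit on trained calls formed a gradual series. Members with 2 calls in the trained condition that had more, the nearest to the limit (1968 regions), had medians of 123 reads over the untrained and 110 over the trained libraries. Otherwise eligible regions with 3 calls there, just outside (3198 regions), had 166 and 159, and those with 4 calls (1998 regions) had 299 and 300.

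No member passed the test for training. Averaged over treatments, edgeR's quasi-likelihood test with Benjamini-Hochberg adjustment over 14553 regions called 0.0% of the regions and 0 of the 2661 members tested, and DESeq2 called 0 members. The other 80 members fell below the filter on low counts. The rule used this contrast, so its unadjusted p-values are only a description. Of the members tested, 142 (5.34%) had an unadjusted p under 0.05, where 2.87% of all tested regions did. Of these, 136 (5.11%) were lower in trained rats, where 1.59% of all tested regions were. The median log2 fold change from untrained to trained was -0.116 over the members tested and 0.019 over all tested regions. In 0 members, and in 0.0% of all tested regions, did all 8 untrained libraries lie above all 8 trained ones.

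The members with the widest gap in calls show how far calls and signal can part. At chr12:24735662-24736060, with 3 calls in each untrained condition and none in trained rats, the signal was 27.4, 32.7, 34.8 and 37.8 CPM in untrained vehicle A to D and 38.6, 31.2, 26.6 and 25.4 CPM in untrained corticosterone A to D. In trained rats it was 20.8, 21.3, 36.1 and 18.6 CPM with vehicle and 31.9, 15.7, 33.3 and 26.4 CPM with corticosterone. The highest trained libraries lie above most untrained ones, and no library held more than 21 reads. For training, edgeR gave a log2 fold change of -0.41 ± 0.23 (SE), with an adjusted p of 1.

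The other member with 6 untrained calls and no trained call was chr1:261533869-261534140. Its untrained levels were 13.7, 28.4, 26.6 and 8.11 CPM with vehicle and 36.8, 27.5, 26.6 and 25.4 CPM with corticosterone. Its trained levels were 26.5, 14.2, 30.5 and 11.6 CPM with vehicle and 39.9, 13.9, 13.9 and 14.2 CPM with corticosterone. Trained corticosterone A was the highest of all 16 libraries without a call, on 5 reads. Again the groups overlap (edgeR log2 fold change -0.41 ± 0.28 SE; adjusted p 1).

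At chr9:10995278-10996046 all 8 untrained libraries had a call and 3 trained ones did. It reached 119, 109, 73.7 and 70.3 CPM in untrained vehicle and 95.6, 69.8, 71.7 and 66.1 CPM in untrained corticosterone A to D. Trained vehicle A and B stood at 110 and 154 CPM, trained vehicle C and D at 33.3 and 30.2 CPM, and trained corticosterone A to D at 95.7, 45.3, 47.1 and 97.5 CPM. Trained libraries were therefore both the highest and the lowest, and the spread between pools of a trained condition exceeded the difference between the groups (edgeR log2 fold change -0.15 ± 0.26 SE; adjusted p 1).

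Of the 8 members named for their gap in calls, chr2:223906910-223907369 had the lowest log2 fold change for training. It held 32 to 71.7 CPM in the untrained libraries and 16.2 to 41.6 CPM in the trained ones (edgeR log2 fold change -0.66 ± 0.21 SE; adjusted p 1). At chr2:94536092-94536636 the ranges were 38.6 to 66.1 and 18.3 to 58 CPM (log2 fold change -0.52). At chr8:81014480-81014849, chr6:106316644-106316959 and chr18:48781753-48782110 the log2 fold changes were -0.44, -0.46 and -0.28. In each of these 8 members the untrained and trained ranges overlapped.

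**Figure D4:**
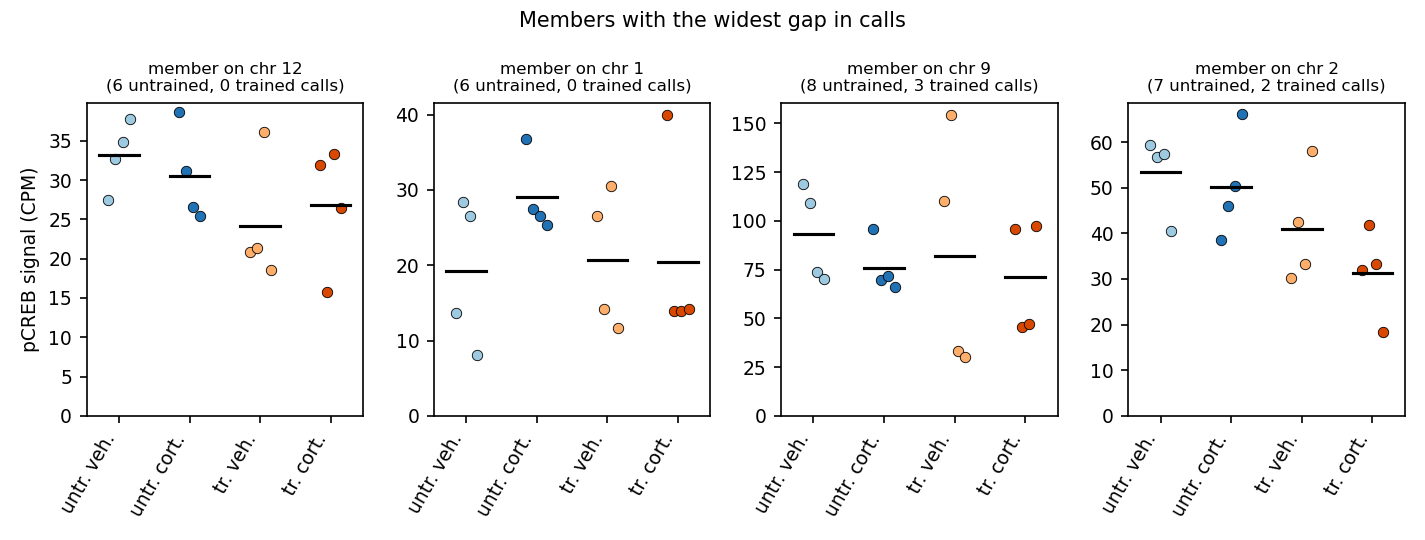
Normalized pCREB signal (y axis, CPM, each panel with its own scale from 0) in the 4 libraries of each condition (points) with their mean (line), at chr12:24735662-24736060, chr1:261533869-261534140, chr9:10995278-10996046 and chr2:94536092-94536636 from left to right. In each panel the trained points overlap the untrained ones.

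A few members held many reads. Over 1000 reads were held by 23 members, with a median of 9 calls among 16 libraries (4 to 12), against 7 over all members. Of the regions without GR overlap called in 15 or 16 libraries, 436 held over 1000 reads. Input libraries were not used here, so whether the reads at these 23 members reflect binding was not tested. The member with the highest mean, chr13:33527742-33529357, stood at 1320, 421, 1310 and 657 CPM in untrained vehicle A to D and had calls in 3 of these libraries. It stood at 391, 399, 730 and 409 CPM in untrained corticosterone, 470, 346, 613 and 320 CPM in trained vehicle and 957, 446, 673 and 368 CPM in trained corticosterone. Levels in vehicle A and C of untrained rats were the highest, and the trained libraries lay within the range of the untrained ones except vehicle B, vehicle D and corticosterone D, which were below it. The library with the lowest depth, trained corticosterone A, was high.

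Untrained vehicle A was the highest library at each of the 5 members with the highest mean CPM. At chr12:1510043-1510397, chr1:180558190-180558673, chr13:33593197-33593594 and chr1:181014452-181015215 the highest level was that of untrained vehicle A, at 498, 599, 503 and 503 CPM. Within trained corticosterone, A stood at 319, 343, 319 and 287 CPM and D at 160, 187, 118 and 118 CPM. Of the 23 members with over 1000 reads, 6 lie in 1 stretch, chr1:180558190-182012187, in which the list holds 8 members and 9 pCREB regions that overlap GR and no others. These 6 had 4 to 8 calls. Log2 fold changes for training at the 5 members with the highest mean CPM ran from -0.6 to -0.3, and none passed.

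The rule did not compare corticosterone with vehicle, although it limited the calls in each condition, and no member passed the tests of this contrast. In untrained rats edgeR called 0.0% of 14553 regions and 0 of 2661 members, in trained rats 0.0% and 0, and for the average over both 0.0% and 0. DESeq2 called 0 members in each. At an unadjusted p under 0.05 there were 132 members in untrained rats (4.96% of members tested, against 2.69% of all tested regions), 136 in trained rats (5.11% against 5.94%) and 143 for the average (5.37% against 4.87%). The surplus in untrained rats cannot be read as a response, because members had to reach 3 calls in 1 of the 2 untrained conditions. In trained rats 70 of the members at this level were higher with corticosterone (2.63% of members, against 2.72% of all tested regions) and 66 lower (2.48% against 3.22%). All 4 corticosterone libraries lay above all 4 vehicle libraries in 26 members there (0.977% of members, where 1.44% of all tested regions did so). They lay below them in 15 (0.564% of members, where 0.756% of all did so). For the average, 107 were higher (4.02% against 2.72%) and 36 lower (1.35% against 2.15%). The average includes the untrained contrast, so this skew cannot be read as a response either. Of the 107, 105 were listed through untrained corticosterone alone, and of the 36, 24 through untrained vehicle alone. Single libraries moved the counts at an unadjusted p under 0.05, and the whole list moved with the members. In trained rats 297 members (10.9%, against 14.5% of all regions) reached this level without trained vehicle C, 255 (9.38% against 10.3%) without trained vehicle D and 261 (9.72% against 9.93%) without trained corticosterone D. Without trained vehicle B there were 70 (2.61% against 3.07%), and in a fit of the trained libraries alone 72 (3.27% against 3.63%). For the average there were 277 (10.2% against 10.7%) without trained vehicle C, 230 (8.46% against 7.43%) without trained vehicle D and 248 (9.24% against 7.85%) without trained corticosterone D.

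Where a member was listed through 1 untrained condition alone, that condition bore on its apparent response in untrained rats. Members listed through untrained corticosterone had a median log2 fold change of 0.164 there (2124 tested), those listed through untrained vehicle -0.338 (302 tested) and those listed through both -0.09 (235 tested). The values of the members listed through 1 condition follow from the choice, while reaching 3 calls in both sets no direction by itself. The median in untrained rats was -0.016 over all tested regions and -0.1 for the trained-listed regions. In trained rats the same sets had medians of 0.053, -0.103 and -0.111, with -0.003 over all tested regions. These medians are not free of the rule either, since its limit on trained calls bore unequally on the trained libraries, and so may have on the treatments. Without trained corticosterone A there were 2754 members. Without corticosterone B, C or D of trained rats there were 3505, 3497 and 3503, and without 1 trained vehicle library 3419 to 4201. Over all members tested the medians were 0.084 in untrained and 0.028 in trained rats. The sign of the members' median in trained rats depended on the scaling. It was -0.0101 with DESeq2's size factors in edgeR, -0.0125 in DESeq2 and -0.0754 with TMM factors from the GR-overlapping regions, where the median of all regions was -0.106. It was also -0.0184 without trained vehicle A and -0.0201 without trained corticosterone B. Relative to the median of all regions, that of the members was 0.011 to 0.05 higher over 24 alternatives.

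**Figure D5:**
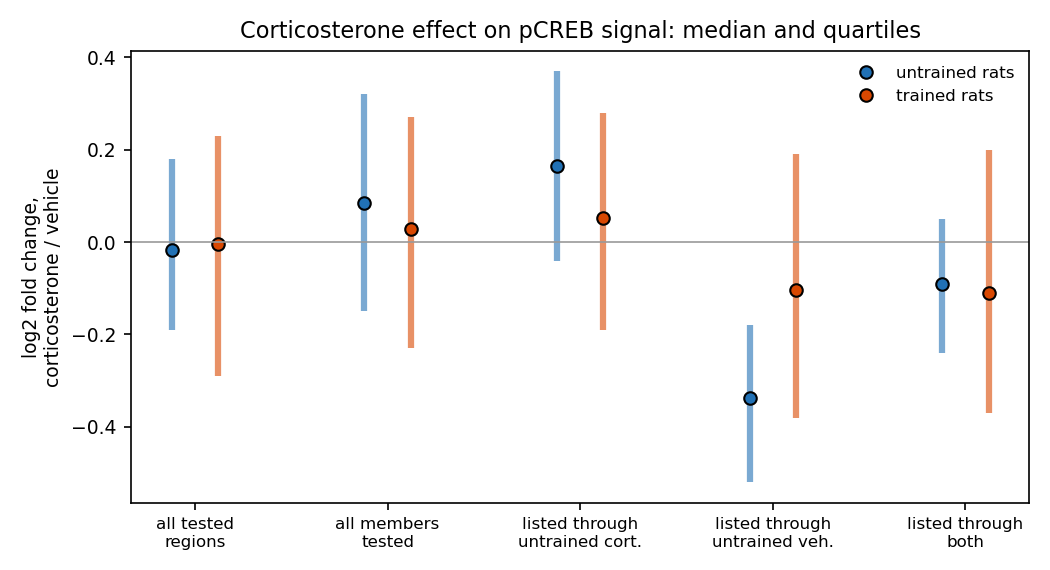
Log2 fold change of pCREB signal, corticosterone over vehicle (y axis), as median (point) and quartiles (bar) over regions, in untrained (blue) and trained (orange) rats, for all tested regions, all members tested and members by the condition that listed them. Members listed through untrained vehicle have a median of -0.338 in untrained and -0.103 in trained rats.

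In untrained rats the smallest p for corticosterone belonged to a member with few reads. There chr14:8528996-8529305 stood at 27.4, 10.9, 16.4 and 5.41 CPM with vehicle and at 31.2, 33.1, 37.2 and 35.6 CPM with corticosterone, on 2 to 18 reads. The groups did not overlap, but the 2.44-fold difference did not pass (edgeR log2 fold change 1.28 ± 0.36 SE; adjusted p 1). Peaks were called there in 3 untrained corticosterone libraries and no other, which is why it is a member. In trained rats its levels overlapped, at 11.6 to 22.2 CPM with vehicle and 15.9 to 24.4 CPM with corticosterone. Its neighbours in that order were chr7:79920680-79920996 (log2 fold change -1.24) and chr1:151967162-151967482 (1.12).

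In trained rats the smallest p belonged to chr11:35796121-35796742. Its levels were 28.4, 16.6, 33.3 and 23.2 CPM with vehicle and 31.9, 64.5, 49.9 and 44.7 CPM with corticosterone, where A, on 4 reads, fell into the vehicle range. In edgeR its log2 fold change of 1.0 ± 0.29 (SE) had an adjusted p of 0.78. Without training the same region was at 43.6 to 64 CPM with vehicle and 45.1 to 68 CPM with corticosterone, so that trained vehicle was the low condition. The rule limited calls in trained vehicle, where this member had 0, so its low level there cannot be read as a response. The next members, also on chromosome 11, were chr11:31525629-31525918 (log2 fold change 1.4, SE 0.44) and chr11:89406867-89407260 (-1.45, SE 0.46), both with an adjusted p of 0.78 by edgeR. The first held 1 to 10 reads in trained vehicle libraries.

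For the average over training states the leading members were chr10:54245138-54245481, chr18:18029109-18029395 and chr7:91332380-91332670. At chr10:54245138-54245481 vehicle libraries lay between 8.33 and 27 CPM and corticosterone libraries between 16.2 and 44.3 CPM (edgeR log2 fold change 0.92 ± 0.26 SE; adjusted p 0.84). The ranges overlap, although the means were higher with corticosterone in both training states. At chr18:18029109-18029395 the order was opposite, with 16.7 to 49.7 CPM with vehicle and 7.97 to 31.9 CPM with corticosterone (log2 fold change -0.8, SE 0.24). At chr7:91332380-91332670 the log2 fold change was 0.89 (SE 0.29).

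Whether training changed the response to corticosterone was tested as an interaction. It called 0.0% of 14553 regions and 0 members in edgeR, and DESeq2 called 0 members. At an unadjusted p under 0.05 there were 105 members (3.95%, against 3.3% of all tested regions), and 165 without trained vehicle C (6.07%, against 5.52% of all). The rule used calls in all 4 conditions, so these counts are only a description. Among the 105, members listed through untrained corticosterone alone had 64 values below 0 and 11 above (3.53% of 2124 tested). Those listed through untrained vehicle alone had 0 below and 26 above (8.61% of 302 tested). Over all 14553 tested regions, 223 values at this level lay below 0 and 257 above. The leading member, chr2:185304514-185304751, rested on 1 to 17 reads a library. It had 4 calls in untrained corticosterone, 2 in trained vehicle and 0 in each of the other conditions. Its levels were 4.57 to 18.4 CPM in untrained vehicle and 18.4 to 31.9 CPM in untrained corticosterone, against 13.9 to 28.4 CPM and 5.23 to 16.6 CPM in trained vehicle and corticosterone. In edgeR the interaction was -2.01 ± 0.58 (SE) on the log2 scale, with an adjusted p of 0.999. Next came chr7:126664764-126665084 (-1.85, SE 0.57) and chr1:182011756-182012187 (1.81, SE 0.56), a member of the stretch on chromosome 1 named above. There the mean was higher in vehicle than in corticosterone rats among the untrained (370 ± 166 and 166 ± 61.3 CPM) and lower among the trained (147 ± 45.8 and 242 ± 128 CPM; SD, n = 4 each), and untrained vehicle B, at 168 CPM, lay within the range of untrained corticosterone.

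The median standard error of a member's log2 fold change was 0.34 for corticosterone in untrained rats, 0.35 in trained rats, 0.25 for the averages and 0.49 for the interaction. The differences of 1.28 ± 0.36 and -2.01 ± 0.58 (SE) at members named above did not pass in edgeR after adjustment. Both members were picked for the smallest p and the rule bore on both, so they carry no weight here. With errors of this size, the lack of calls does not show that training or corticosterone left these sites unchanged.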

How the data were processed

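Chromatin of 16 pools was immunoprecipitated for phospho-CREB. The submitters' processing notes name HTSeq 0.6.1-1, MACS2 2.1.1.20160309, BWA 0.7.10 and bedtools 2.26.0 and the rn6 assembly. The authors deposited 1 table of GR and pCREB regions with a raw read count and the peak calls of each library. The table's column codes name both a GR and a pCREB library, and they were read as the pCREB library in pCREB regions. In 16 of 16 columns, the counts went with that library's own calls. No pair of libraries within a condition was a duplicate (lowest chi-square per degree of freedom 1.3 over 24 pairs). The letters A to D denote separate pools.

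The counts of all 14722 pCREB regions were fitted in 1 model of 4 conditions with edgeR 4.0.16 (R 4.3.3; TMM scaling, low-count filter, robust quasi-likelihood test, Benjamini-Hochberg adjusted p under 0.05). DESeq2 1.42.0, other scalings, no filter, a replicate block and leaving out each library were alternatives. The fit was tested on simulated data. Regions were named by the widest gap between untrained and trained calls (8, ties going to the higher mean CPM), the highest mean CPM (5) and the smallest p in each corticosterone contrast and the interaction (3 each). The members and these choices were made with earlier results of these data known. Genes, motifs and sequences at the regions were not analysed here, since no sequence or annotation of rn6 was used. Input and GR libraries were not used here.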

Additional observations from a re-analysis of the deposited data

Results flagged for a closer look

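Within each condition the 4 libraries were compared at the named members and for 3 measures over all members (the share called, the share of reads and the median CPM), which gave 112 groups of 4, of which 7 held a library far from the other 3 (gap over range above Dixon's critical value of 0.829). Chance gives about 1 in 20 such groups. At chr12:24735662-24736060 trained vehicle C stood at 36.1 CPM, with the others at 18.6 to 21.3 CPM. At chr1:261533869-261534140 trained corticosterone A stood at 39.9 CPM against 13.9 to 14.2 CPM. Untrained vehicle D was low at chr2:94536092-94536636, with 40.5 CPM against 56.7 to 59.4 CPM. Untrained corticosterone C was high at chr13:33527742-33529357, with 730 CPM against 391 to 409 CPM, and at chr1:182011756-182012187, with 258 CPM against 130 to 138 CPM. At chr7:79920680-79920996 untrained vehicle A reached 64 CPM, the others 28.4 to 32.7 CPM. At chr2:185304514-185304751 untrained corticosterone B was low, with 18.4 CPM against 30.5 to 31.9 CPM.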

How the results depend on the processing

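No member passed the threshold in any of the 7 contrasts under any alternative run, and the 12 corticosterone and interaction values of named members kept their direction in all 280 refits, with adjusted p from 0.278 to 1 (edgeR and DESeq2). Over all regions, the average training effect had 1 call with DESeq2's size factors in edgeR, 2 in DESeq2 and 0 to 3 when each library was left out in turn (3 without trained vehicle A). Training in vehicle rats had 0 to 3 (3 without trained vehicle A or without trained corticosterone A), and training in corticosterone rats had 1 in a fit of the compared libraries alone. None of these was a member, and the cause was not tested. The number of members was 545, 773 and 96 under stricter call limits and 1158 to 4201 with each library left out in turn. With the limits kept, it was 2714 without untrained vehicle A and 2754 without trained corticosterone A. It was 1401 without both when 2 of the 3 remaining calls were required in their conditions. The median log2 CPM difference of the members, untrained minus trained, was 0.162 and ranged from 0.144 to 0.204. The pooled SD between libraries of a condition was lower, at 0.105. The rule used this contrast, so the difference is only a description.

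With the letter as a replicate block, 0 regions and 0 members passed in every contrast. Deviations of same-lettered libraries correlated from -0.34 to 0.51 (median 0.12, above 0.1 in 13 of 24 pairs). Libraries of different letters were not compared, so these values cannot decide whether the letters mark paired samples. At a median of 212 reads per member over 16 libraries, counting error is large. Comparisons under other motif definitions and distances to transcription starts were not run, since no rn6 sequence or annotation was used.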
